A study of Mus musculus with 4 samples.

Results

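Mediator is the multisubunit coactivator that carries signals from DNA-bound transcription factors to RNA polymerase II. Its transcripts were followed in a mouse large pre-B cell line. Members were the genes whose symbol is Med followed by a digit, together with Ccnc, Cdk8 and Cdk19. This rule found 33 of the 23420 genes in the count files, and all 33 passed the filter on low counts. The line carries the genotype Irf4/8-/-, so both groups lack the same pair of interferon regulatory factors. At the large pre-B stage, developing B cells divide and display the pre-B cell receptor. They were kept on OP9 stroma, a feeder line, with 10 ng/ml of IL-7, and received a GFP retrovirus. In the shMyb group the virus made a hairpin against Myb, and in the shLuc group a hairpin against luciferase, a target that mouse cells lack. GFP-positive cells were sorted after 72 hours, and each group had 2 RNA-seq libraries from duplicate sets of 12 wells. The design is therefore 1 line and 1 hairpin per target, and p-values cover the spread between duplicate sets of wells.

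The core of Mediator has a head, a middle and a tail, held together by Med14, and it contacts RNA polymerase II mainly through the head and middle. A separable kinase module, made of Cdk8 or its paralog Cdk19, cyclin C (Ccnc), Med12 or Med12l, and Med13 or Med13l, binds the core reversibly. While it is bound, the core cannot engage the polymerase in the same way, and its kinase phosphorylates transcription factors. Med27, Med28, Med29 and Med30 are placed with the head or with the tail in different accounts and are treated here as a junction group.

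Myb itself was not lower in the libraries that carry its hairpin's label. Its CPM (library-scaled counts, by TMM) was 616 and 600 in shLuc and 617 and 639 in shMyb. On the log2 scale the difference was 0.05 (SE 0.04, edgeR adjusted p = 0.283). Groups are therefore named by their labels, and no difference below is a measured effect of less Myb transcript. Total counts ran from 36573743 to 44682954 per library. The 12 large pre-B markers summed to 9237 and 9434 CPM in shLuc and to 8550 and 8306 in the libraries labelled shMyb. The sums over 15 markers of OP9 stroma were 89.2 and 71.5 CPM against 118 and 121, with Lum at 0 in 3 libraries. Thy1 carried that gap, with 12.9 and 11.7 CPM in shLuc and 62.5 and 58.8 in shMyb (log2 fold change 2.30). Without it the other 14 summed to 76.2 and 59.8 against 55.5 and 62.6 CPM. Among them edgeR called Fn1 (-1.52), Cxcl12 (-1.80) and Col6a1 (-0.49) lower and Sparc (0.42) and Postn (1.01) higher. Over 13 myeloid markers they were 6.73 and 4.82 against 11.01 and 14.3 CPM, with Cebpe and Elane at 0 in all 4. Over 9 T-lineage markers, nearly all of it Lck, they were 99.7 and 102 against 120 and 113, with Cd4 and Cd8a at 0. Cd3e, Cd3d, Cd3g and Gata3 had no more than 2 counts in any library, Bcl11b 21 to 31 and Tcf7 55 to 78. The part of these other cell types in the values below was not tested.

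RefSeq promoters, 300 bases from 250 before to 50 after a transcript start on GRCm38.p6, matched 28 of the 33 members with 32 windows. Shown are the windows of Med12 and Med13, which rose, of Cdk8 and Ccnc, which fell, and of Med19, the 1 called member with a matched window that holds the letters of a Myb site. Capitals mark TAACNG, the letters searched for Myb. They also mark CCGGAA, a core bound by ETS factors. The TATA box, TATAAA, was the third search. Each was searched on both strands, so a match on the other strand appears as its reverse complement.
Med12 (chrX:101273841-101274140, plus strand): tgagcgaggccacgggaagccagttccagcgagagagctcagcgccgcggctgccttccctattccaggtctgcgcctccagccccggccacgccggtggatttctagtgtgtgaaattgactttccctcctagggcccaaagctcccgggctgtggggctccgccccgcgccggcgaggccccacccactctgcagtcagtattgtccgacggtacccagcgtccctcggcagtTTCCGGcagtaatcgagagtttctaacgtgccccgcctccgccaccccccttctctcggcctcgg
Med13 (chr11:86357547-86357846, minus strand): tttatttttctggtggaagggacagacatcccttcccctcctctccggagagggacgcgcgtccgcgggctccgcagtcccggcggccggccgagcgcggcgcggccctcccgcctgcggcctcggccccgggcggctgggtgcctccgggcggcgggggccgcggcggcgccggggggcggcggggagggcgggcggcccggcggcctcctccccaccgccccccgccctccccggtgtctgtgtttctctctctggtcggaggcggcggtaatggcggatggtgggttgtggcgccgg
Cdk8 (chr5:146231000-146231299, plus strand): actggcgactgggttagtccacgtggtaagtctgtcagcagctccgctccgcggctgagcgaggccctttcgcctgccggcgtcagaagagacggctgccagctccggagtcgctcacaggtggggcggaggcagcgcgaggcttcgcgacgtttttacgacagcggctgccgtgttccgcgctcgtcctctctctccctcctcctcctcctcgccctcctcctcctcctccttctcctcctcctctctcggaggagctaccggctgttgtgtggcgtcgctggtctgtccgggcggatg
Ccnc (chr4:21727451-21727750, plus strand): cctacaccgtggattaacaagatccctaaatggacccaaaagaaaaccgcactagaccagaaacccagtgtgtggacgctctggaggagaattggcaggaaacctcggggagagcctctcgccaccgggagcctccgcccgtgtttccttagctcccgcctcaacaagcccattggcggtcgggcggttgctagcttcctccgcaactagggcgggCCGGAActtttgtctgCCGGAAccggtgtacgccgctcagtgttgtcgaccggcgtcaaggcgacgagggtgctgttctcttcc
Med19 (chr2:84678152-84678451, plus strand): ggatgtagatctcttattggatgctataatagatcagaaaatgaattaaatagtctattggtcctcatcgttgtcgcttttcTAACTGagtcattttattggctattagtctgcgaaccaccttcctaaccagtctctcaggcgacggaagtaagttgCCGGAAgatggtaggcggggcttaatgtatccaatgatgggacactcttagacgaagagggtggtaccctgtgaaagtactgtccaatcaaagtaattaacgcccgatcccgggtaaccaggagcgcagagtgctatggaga

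The ETS letters CCGGAA were in 16 of the 32 member windows (50%), against 27.0% of the 11899 windows of all tested genes and 14.9% of all 32851 windows. Among members lower in shMyb, 8 of 12 matched genes held them, as did 1 of 3 members that were higher and 5 of 13 that were not called. Counted by gene, 31.6% of the 9326 tested genes with a window held them, a share that was not split by call. The Ccnc window has them at 2 places shortly before its start. The Myb letters TAACNG stood in 6 of 32 windows (18.8%), close to the 19.5% of the windows of all tested genes. Among the 15 called members with a window, Med19 was the one that had them, beside 22.6% of tested genes with a window. The 5 members without a window were Cdk19, Med8, Med23, Med24 and Med30. TATAAA was in 3 windows (9.38%), against 7.15%. These are matches of letters, not measured binding.

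Across the complex the changes were small and went both ways. Of the 33 members, 4 rose, 13 fell and 16 were not called at an edgeR adjusted p below 0.05. In these bulk samples fewer cells of a type and less RNA per cell cannot be told apart. That is 17 of 33 called, beside 62.2% of all 12610 tested genes, 30.6% higher and 31.7% lower. The median log2 fold change of the members was -0.04, with a range from -0.56 to 0.43, beside a median of 0.0048 for all tested genes. In all, 5 members (15.2%) changed in size by 0.3 or more on the log2 scale, against 40.6% of all tested genes. Libraries of the 2 groups did not overlap for 21 of 33 members (63.6%), against 82.1% of tested genes. The summed CPM of all 33 members was 2192 and 2160 in shLuc and 2224 and 2208 in shMyb, 1.84% higher (exact two-sided permutation p = 0.333, the smallest that 2 against 2 libraries can give).

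**Figure D1:**
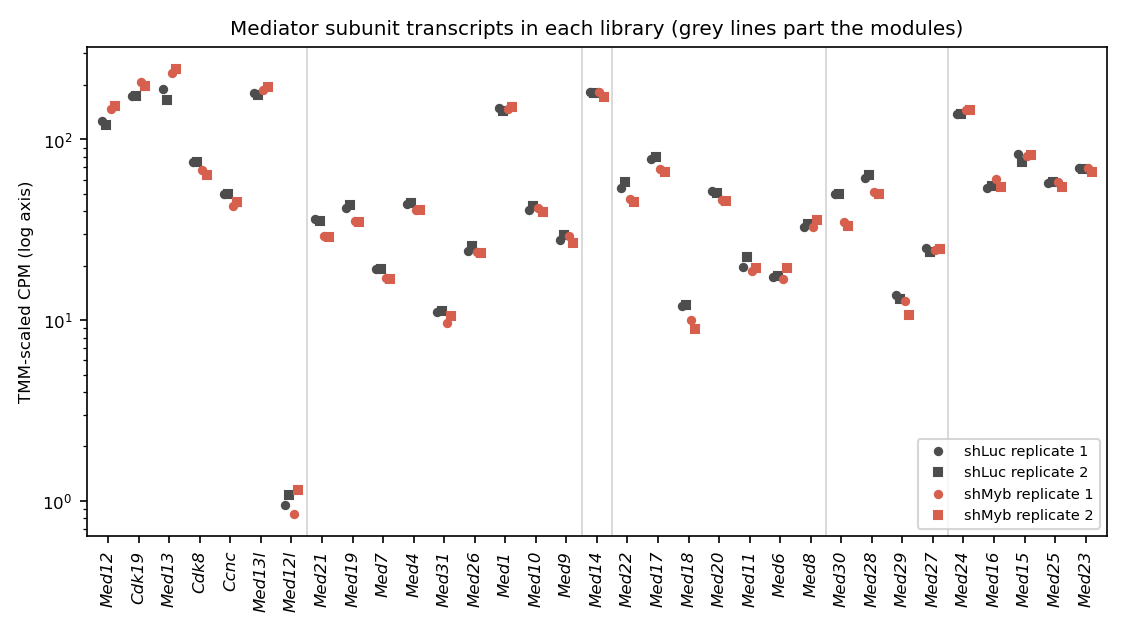
TMM-scaled CPM (log axis) of the 33 members in each of the 4 libraries, with grey lines between the modules. Most members lie between 10 and 250 CPM, Med12l lies near 1, and the libraries labelled shMyb sit apart from shLuc for Med12, Med13 and Med30.

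In the kinase module, 4 of 7 members rose, 2 fell and Med12l was not called, beside 30.6% of all tested genes higher and 31.7% lower. Those were all the members that rose: outside this module none of 26 was called higher and 11 were called lower by edgeR, beside the same 30.6% and 31.7%. At an unadjusted p below 0.05 none of the 26 was higher either. Neither DESeq2 nor limma-voom called one higher, beside 23.05% and 30.8% of all tested genes. DESeq2 called 8 of the 26 lower and limma-voom 10, beside 24.8% and 31.1% of all tested genes. With library totals alone as the scaling, Med1 (0.10), Med16 (0.13) and Med24 (0.13) were called higher. Med24 was also called higher with the abundance trend correction, and Med6 after the GC content and length correction (0.20). The summed CPM of the module was 797 and 760 in shLuc and 891 and 900 in shMyb, 15.0% higher, while that of the other 26 members was 1396 and 1399 against 1334 and 1308, 5.49% lower. Both sums had groups that did not overlap (exact permutation p = 0.333 each, the smallest possible here). The difference between the modules was not tested as such.

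Med13, the large subunit that tethers the kinase module to the core, had 191 and 166 CPM in shLuc and 234 and 245 in shMyb. Both shMyb libraries were above both shLuc libraries, whose own gap was wide. Means were 178 ± 17.1 and 240 ± 7.49 CPM (SD, n = 2 each), a log2 fold change of 0.43 (SE 0.06, adjusted p = 4.1e-04). Med13 (chromosome 11, 86267033 to 86357602, minus strand) showed the largest rise among the members. Its paralog Med13l had 181 and 176 CPM against 187 and 194. It was called higher by 0.10 (SE 0.04, adjusted p = 0.0236), on groups that lay close together. That call ended with DESeq2 (adjusted p = 0.0578), the replicate block (0.0838), no low-count filter (0.0779) and without shLuc replicate 1 (0.0907), shLuc replicate 2 (0.242) or shMyb replicate 2 (0.178), and turned to -0.09 after the GC content and length correction (adjusted p = 0.0385).

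Med12, which together with cyclin C switches the kinase on, had 126 and 120 CPM in shLuc and 148 and 153 in shMyb. The groups were well apart. Means were 123 ± 4.55 and 151 ± 3.59 CPM (SD, n = 2 each), a log2 fold change of 0.30 (SE 0.04, adjusted p = 3.5e-07). After the GC content and length correction it was 0.16, still called. Med12 lies on chromosome X (101274030 to 101297465, plus strand), and 8.84% of its 50-base stretches also occur in Gm21986, a transcript annotated over it. Its paralog Med12l was nearly silent, with 38 and 47 counts in shLuc and 33 and 43 in shMyb, or 0.951, 1.08, 0.847 and 1.15 CPM. The groups overlapped, and the interval of its log2 fold change was wide, -0.61 to 0.54. Igsf10 lies on the opposite strand over 15.3% of the Med12l exon bases, so these few counts are uncertain.

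The alternative kinases moved in opposite directions. Cdk19 (chromosome 10, 40339564 to 40483818, plus strand) had 174 and 173 CPM in shLuc and 209 and 198 in shMyb, a rise of 0.23 on the log2 scale (SE 0.04, adjusted p = 9.1e-06). Cdk8 (chromosome 5, 146231230 to 146302874, plus strand), the founding kinase of the module, had 74.9 and 74.7 CPM against 67.9 and 63.7. It fell by 0.19 (SE 0.04, adjusted p = 5.1e-04). Neither gene's groups overlapped. Ccnc, the cyclin that both kinases need, had 49.7 and 49.7 CPM in shLuc and 43.04 and 45.01 in shMyb, and fell by 0.18 (SE 0.05, adjusted p = 0.0017). Ccnc thus fell, as Cdk8 did, while Cdk19 rose.

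Cdk8 made up 30.1% and 30.2% of the counts of the pair in shLuc and 24.5% and 24.3% in shMyb. The exact binomial 95% intervals, which cover counting error alone, were 29.2% to 31.0% and 29.3% to 31.0% in shLuc, and 23.7% to 25.3% and 23.5% to 25.2% in shMyb. The intervals of the groups did not meet. The mean share fell by 5.70 points, from 30.1 ± 0.0453% to 24.4 ± 0.119% (SD, n = 2 each). Med13 made up 51.3% and 48.6% of its pair with Med13l in shLuc and 55.6% and 55.8% in shMyb, 5.69 points more. Med12 was 99.1% to 99.4% of its pair with Med12l in every library. For each pair the exact permutation p over libraries was 0.333, the smallest possible. No 50-base stretch is shared between the annotated transcripts of Cdk8 and Cdk19, of Med12 and Med12l, or of Med13 and Med13l. However, 5.31% of the 50-base stretches of Cdk8 also occur in transcripts of other genes, such as Gm7107, against 0% of those of Cdk19. Per kilobase of exon, Cdk19 stood at 29.7 ± 0.113 CPM and Cdk8 at 7.61 ± 0.0125 CPM in shLuc (SD, n = 2), and at 34.8 ± 1.35 and 6.69 ± 0.303 CPM in shMyb. The share within a pair is of reads and is not a molar share.

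**Figure D2:**
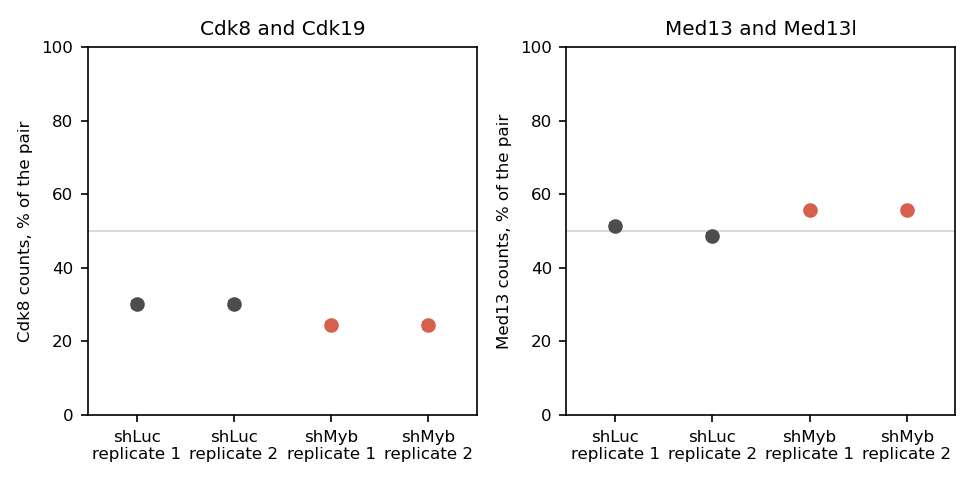
Share of Cdk8 in the counts of Cdk8 plus Cdk19 and of Med13 in those of Med13 plus Med13l, in each library, with exact binomial 95% intervals that are smaller than most symbols. Cdk8 lies near 30% in shLuc and near 24% in shMyb, and Med13 moves from about 50% to 55.7%.

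**Figure D3:**
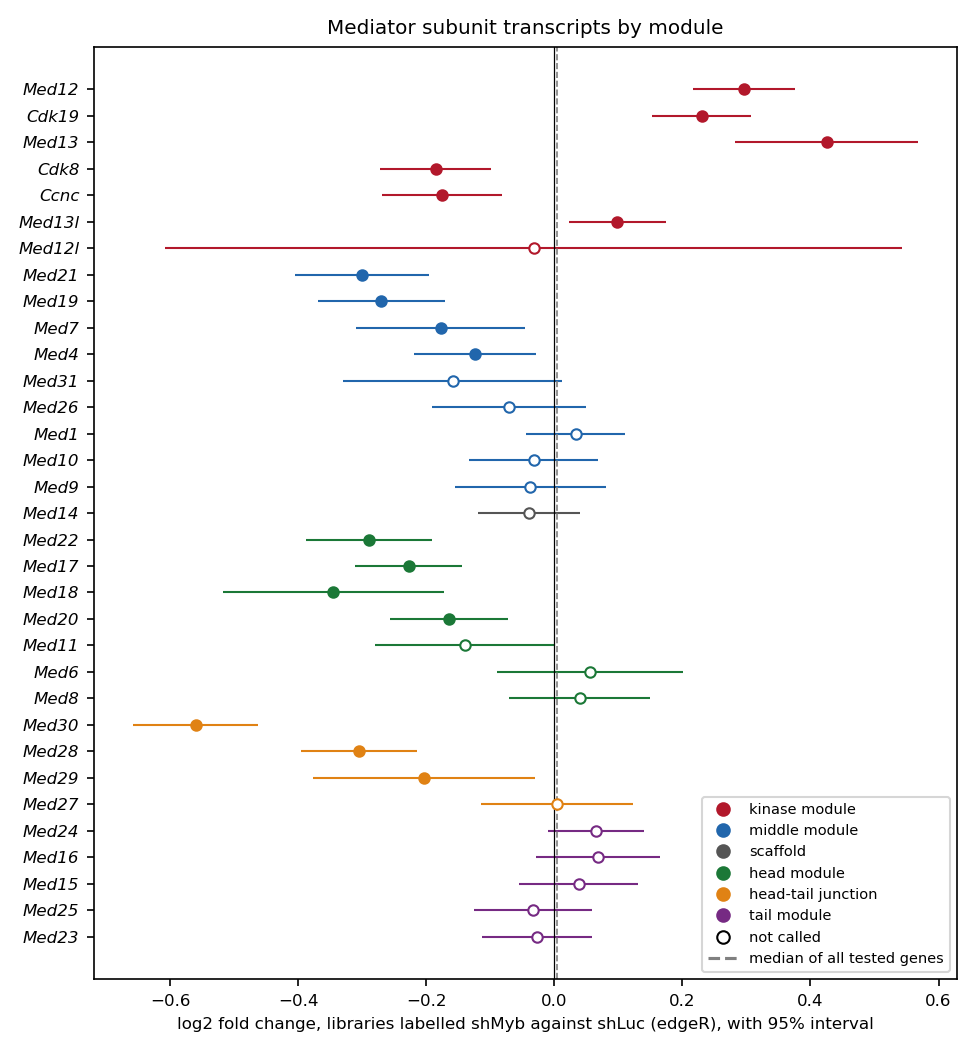
Log2 fold change of each member with its 95% interval (edgeR), coloured by module, with open symbols for members that were not called. With TMM scaling all 4 members that rose are in the kinase module, 11 of the 13 that fell are outside it, and the tail module lies around 0.

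In the head, 4 of 7 members fell and none was called higher by edgeR, beside 31.7% lower and 30.6% higher among all tested genes. Med18 and Med20 form the movable jaw of the head, and both fell. Med18 had 12.0 and 12.2 CPM in shLuc and 10.0 and 8.95 in shMyb, a fall of 0.35 on the log2 scale (SE 0.08, adjusted p = 9.6e-04). Med20 fell by 0.16 (SE 0.04, adjusted p = 0.0026). Gm20517, on the same strand, covers 7.004% of the Med20 exon bases, and Kpna2-ps, on the opposite strand, covers 21.4%. The strand setting of the counting is not given, so the Med20 value is uncertain. Med17, a central subunit of the head, had 77.7 and 80.0 CPM against 68.2 and 66.4, a fall of 0.23 (SE 0.04, adjusted p = 3.1e-05). Med22 had 53.6 and 58.4 CPM against 46.8 and 44.8, a fall of 0.29 (SE 0.05, adjusted p = 1.2e-05). These groups did not overlap. Med11, the partner of Med22 in the head, was at -0.14 (adjusted p = 0.0780). It was called lower with no low-count filter (-0.16) and with a crossed pairing of the replicates that was added after seeing the data (-0.14). Without shLuc replicate 1 its value was -0.26. Med6 (0.06) and Med8 (0.04) were not called, and their groups overlapped.

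In the junction group 3 of 4 members fell, beside 31.7% of all tested genes, and it held the member with the largest fall by edgeR. Med30 (chromosome 15, 52712408 to 52730564, plus strand), a subunit found in animals and not in yeast, had 50.2 and 50.2 CPM in shLuc and 34.9 and 33.2 in shMyb. The shMyb libraries lay far below the shLuc libraries relative to the gap between duplicates. Its log2 fold change was -0.56 (SE 0.05, adjusted p = 2.5e-10), so it fell by 32.2%. The log2 value ran from -0.60 to -0.40 over the alternatives. Per kilobase of exon Med30 ranked 1 of 33 in shLuc, at 42.4 ± 0.00814 CPM, and 2 in shMyb, at 28.7 ± 1.03 CPM (SD, n = 2 each), where Cdk19 ranked 1. Med28 had 60.9 and 63.6 CPM against 50.9 and 49.9, a fall of 0.31 (SE 0.04, adjusted p = 1.5e-06). Med29 had 13.8 and 13.2 CPM against 12.8 and 10.6 and was called lower by 0.20 (adjusted p = 0.0393). That call rested on shMyb replicate 2, without which the value was -0.08, and ended with DESeq2 (adjusted p = 0.203), limma-voom (0.0535), robust=FALSE (0.0567), library totals (0.169) and without shLuc replicate 1 (0.0988). Med27 was at 0.0045 (95% interval -0.11 to 0.12), with overlapping groups.

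In the middle module, 4 of 9 members fell, beside 31.7% of all tested genes, and none was called higher by edgeR. With DESeq2 it was 2 of 9, beside 24.8% of all tested genes. Med7 and Med21 pair to form the flexible hinge of the module, and both were lower. Med21 had 36.3 and 35.5 CPM in shLuc and 29.3 and 29.0 in shMyb, a fall of 0.30 (SE 0.05, adjusted p = 1.6e-05). Med7 had a log2 fold change of -0.18 (adjusted p = 0.0188). Med19, at the hook of the middle, had 41.5 and 43.3 CPM against 35.3 and 35.0, a fall of 0.27 (SE 0.05, adjusted p = 3.2e-05). Med4 was at -0.12 (adjusted p = 0.0221). The calls of Med7 and Med4 ended with DESeq2 (adjusted p = 0.158 and 0.153), library totals (0.117 and 0.228), the GC content and length correction (0.295 and 0.286) and without shLuc replicate 2 (0.0581 and 0.116) or shMyb replicate 2 (0.0615 and 0.0581). That of Med4 also ended with the abundance trend correction (0.0768).

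The remaining middle members did not pass. Under other settings Med26 (-0.21, adjusted p = 0.0018) and Med10 (-0.13, 0.0214) were called lower after the GC content and length correction, and Med31 (-0.21, 0.0335) with the abundance trend correction. Med1, the subunit bound by nuclear receptors and an abundant member, was at 146 ± 3.79 and 150 ± 3.63 CPM (SD, n = 2 each), a log2 fold change of 0.03 (95% interval -0.04 to 0.11). Med26, which docks elongation factors, was at -0.07 (-0.19 to 0.05), and Med31 at -0.16 (-0.33 to 0.01). Med9 (-0.04) and Med10 (-0.03) had overlapping groups. On the opposite strand Gm26819 covers 92.8% of the Med10 exon bases, 4930563E22Rik covers 26.3% of those of Med31, and 2310031A07Rik covers 21.2% of those of Med7. Likewise Gm17435 covers 12.7% of those of Med26, and Zdhhc5 covers 11.95% of those of Med19. Over Med21, Gm6654 covers 9.88% and Tm7sf3 covers 5.59%. The strand setting of the counting is not given, so these values are uncertain. Med14, the scaffold, had 184 and 181 CPM in shLuc and 184 and 171 in shMyb, with overlapping groups and a log2 fold change of -0.04 (95% interval -0.12 to 0.04).

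The tail, where many activators bind, had no call among its 5 members with edgeR, DESeq2 or limma-voom, and none reached an unadjusted p of 0.05. Of all tested genes edgeR called 62.2%. DESeq2 called 23.05% higher and 24.8% lower, and limma-voom 30.8% and 31.1%. Med24 had 138 and 139 CPM in shLuc and 145 and 145 in shMyb, a log2 fold change of 0.07 (95% interval -0.0093 to 0.14, adjusted p = 0.120). Med16 had 54.2 and 55.1 CPM against 60.1 and 54.5, a log2 fold change of 0.07 (adjusted p = 0.211). Med15, which is bound by the sterol-regulating SREBP factors and other activators, was at 0.04 (95% interval -0.06 to 0.13). Med25 (-0.03) and Med23 (-0.03), a subunit used by MAP kinase-responsive ETS factors, had overlapping groups as well. The sum of the 5 was 403 and 396 CPM in shLuc and 413 and 403 in shMyb (exact permutation p = 0.667). Tail values depended on scaling and correction. Beside the rises with library totals, Med24 was called higher with the abundance trend correction (0.11) and Med16 without shMyb replicate 2 (0.14), whereas after the GC content and length correction Med16 (-0.15), Med24 (-0.10) and Med25 (-0.26) were called lower.

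Members that rose had long exons and high levels. The 4 that rose had 5846 to 15427 exon bases (median 9272) and means of 137 to 209 CPM. The 13 that fell had 1185 to 9832 bases (median 3523) and 10.8 to 73.1 CPM. Across the 33 members the log2 fold change went with log2 exon length at Pearson r = 0.52 and Spearman rho = 0.47, and with mean log2 CPM at 0.40 and 0.44. Over the tested genes, Pearson r was -0.0011 and Spearman rho 0.08 for length (12493 genes with a length), and -0.30 and -0.27 for level. Genes are not independent replicates and share libraries, so these are descriptions. Of all tested genes up to 2 kb of exon 20.8% were higher and 36.7% lower, from 2 to 4 kb 26.7% and 36.6%, and above 10 kb 41.3% and 21.1%. Among members up to 4 kb none of 15 was higher and 8 were lower, 3 of 7 up to 2 kb and 5 of 8 from 2 to 4 kb. Long members were not all higher, since Cdk8 fell, Med20 (7324 bases) fell, and Med15 (11642 bases) was not called. After the GC content and length correction Med13 (0.39), Cdk19 (0.23), Med12 (0.16), Cdk8 (-0.21), Ccnc (-0.15) and Med30 (-0.40) were still called, with Med12 down from 0.30. The same correction turned Med13l to -0.09, called lower, and ended the calls of Med4 and Med7. It also brought 6 members past the threshold that had not been called, Med6 higher (0.20) and Med10, Med16, Med24, Med25 and Med26 lower.

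**Figure D4:**
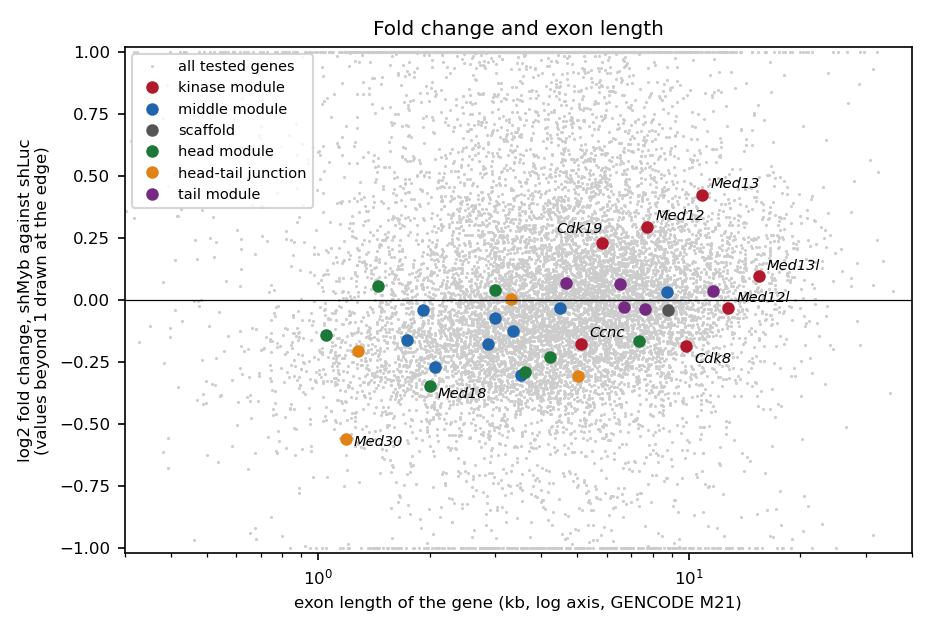
Log2 fold change against exon length (log axis) for all tested genes in grey, with values beyond 1 drawn at the edge, and for the 33 members by module. The members up to 4 kb lie mostly below 0, and the 4 members that rose lie above 5.8 kb.

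The genes that Mediator works with were read from 4 further lists, 45 genes in all, of which 9 rose, 22 fell and 14 were not called (median -0.11), beside 30.6% higher and 31.7% lower over all tested genes. TFIIH, the general factor with DNA helicases and the kinase Cdk7 that acts on the polymerase tail, had 9 of 10 members lower and Ercc2 higher (0.12, adjusted p = 0.0234). Ercc2 was named after its value was seen. Its call ended with DESeq2 (adjusted p = 0.123), no low-count filter (0.0513) and without shLuc replicate 1 (0.0717), shLuc replicate 2 (0.200) or shMyb replicate 2 (0.265), and its value turned to -0.07 after the GC content and length correction (0.182). Ccnh, the cyclin of Cdk7, fell by 0.34 (SE 0.04, adjusted p = 1.9e-07), Gtf2h1 by 0.26 and Gtf2h4 by 0.26. In TFIID, the promoter-binding complex around Tbp, 5 of 16 fell and 2 rose. Taf4b fell by 0.41, Taf9 by 0.28 and Taf10 by 0.22. Of 7 genes for TFIIA, TFIIB, TFIIE and TFIIF, 4 fell and none was called higher by edgeR, with Gtf2e1 (-0.29), Gtf2f2 (-0.29) and Gtf2a2 (-0.25) at the smallest p. Of 12 genes for P-TEFb, its regulators and the super elongation complex, which act on the release of paused polymerase, 6 rose and 4 fell. The elongation factor gene Ell2 rose by 0.43 (SE 0.05, adjusted p = 1.3e-08), the cyclin gene Ccnt2 rose by 0.36 and Mllt3 fell by 0.31. The count of 9 that rose was 4 without shLuc replicate 2 and 5 after the GC content and length correction.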

How the data were processed

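The authors deposited raw read counts per gene symbol, 1 file per library. FastQC, STAR, HTSeq, DESeq2 and the build mm10 are named, per the submitters' processing notes; no source used here gives versions, annotation or strand setting. All 23420 genes of the files entered, and no row lacked a gene name. Groups came from the sample titles. edgeR 4.0.16 in R 4.3.3 kept 12610 genes (filterByExpr, minimum count 10), scaled by TMM, and tested shMyb against shLuc by quasi-likelihood (robust=TRUE) with group as the term. P-values were adjusted by Benjamini-Hochberg over all 12610 genes and called below 0.05. Values with ± are mean and SD. Total counts of 36573743 to 44682954 put 3 counts at 0.0689 to 0.0799 CPM. Exon lengths (union of exons), positions and overlaps are from GENCODE M21 (GRCm38, mm10), which held 21751 symbols by name and 1277 by an older symbol. Promoters are from RefSeq. The test was checked on simulated counts. Members, modules and lists were chosen with earlier results of these data known. Values in every library are given for the kinase module, for called members with a log2 size of 0.3 or more, for the 2 smallest p in each other module, and some others. For the 4 other lists the 3 smallest p and Ercc2 are named and the rest are given as counts; 1 further gene was left out of the lists and counts and is not reported here. Alternatives covered scaling, filters, DESeq2 1.42.0, limma-voom 3.58.1, robust=FALSE, a replicate block, each library left out, a stricter threshold, an abundance trend offset and a GC content and length offset (mgcv, genes of at least 1 CPM).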

Additional observations from a re-analysis of the deposited data

How the results depend on the processing

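Of the 17 called members, 13 had the same call under all 16 alternatives, 3 of the 4 that rose and 10 of the 13 that fell. Med13l, Med29, Med4 and Med7 did not. Of the 16 that were not called, 9 were called under at least 1. With library totals 60.1% of called genes were higher (49.1% with TMM), 7 members were higher, the members' median was 0.023, Myb was called at 0.11, and 1 middle and 2 tail members were higher and 2 middle members lower. With the GC content and length correction the members' median was -0.12 (all tested genes -0.04), 1 head member and 5 of the 45 machinery genes were higher, 3 tail members were lower, and Med13l (-0.091), Med16 (-0.15), Med24 (-0.10) and Ercc2 (-0.070) turned. With the abundance trend correction Myb was called at 0.17 and 1 tail member was higher. DESeq2 and an adjusted p below 0.01 each left 2 middle members lower. The cause was not tested. Without each library in turn, where the lone library is assumed to vary like the others, the members' median ran from -0.14 to -0.046, lower middle members from 2 to 4, higher tail members from 0 to 1 and higher machinery genes from 4 to 7. A replicate block gave 3 members higher and 13 lower, and of the members' calls it ended that of Med13l. Same-numbered libraries deviated at a correlation of -0.19, so the numbers were not taken as pairs. The crossed pairing, added after seeing the data, called 5 higher (1 of the tail) and 14 lower. At these depths Med12l, near 1 CPM, could not show a difference inside its interval.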
